A study of Drosophila melanogaster with 6 samples.

Results

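The genes described here are 38 genes of DNA replication and the cell cycle, followed through whole Drosophila larvae of 3 genotypes. They were listed by name, with earlier results of these data known. A gene was measured where the array annotation gave a probe set its symbol and no other. That left 25 of the 38, among 11982 genes measured in this way. Origin licensing gave 11 of 14 listed genes, the replication fork 3 of 3, nucleotide supply 2 of 3, control of the passage from G1 to S phase 5 of 7, and G2 and mitosis 4 of 11. The other 13 were not analysed here. E2f1, the activating E2F factor, was left out because its probe set also stands for Torsin. The remaining 12 were Orc6, geminin and Mcm7 of licensing, RnrS of nucleotide supply, the CDK inhibitor dap, and CycA, Cdk1, stg, polo, aurA, BubR1 and pav of G2 and mitosis. Most of the G2 and mitosis genes are therefore missing from what follows.

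Transcripts were read on Affymetrix Drosophila Genome 2.0 arrays, 6 in all with 2 per genotype. RNA for an array came from a separate pool of 35 entire larvae, kept at 25°C and collected at an age of 3 days. Larvae of the first genotype expressed dTip60E431Q, a form of the histone acetyltransferase Tip60 with the substitution E431Q in its catalytic domain, from a UAS transgene. Those of the next genotype expressed additional wild-type protein from a UAS transgene, dTip60WT, and the control was w1118 without a UAS transgene. All 3 genotypes came from crosses to the driver 337-GAL4, which is active in all tissues from late embryonic life onwards, and all kept their own Tip60 gene. Each transgene was represented by a single insertion line, called line B. Larvae with dTip60E431Q die late in the second instar, and the pools were taken before that. The study calls these larvae second instar, and the labels give their age only. A marker of the last larval instar, Lsp2, was high with dTip60WT and in the control and low with dTip60E431Q. A shared instar therefore cannot be assumed. Because whole larvae were used, fewer cells of a type and less RNA per cell cannot be told apart.

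DNA replication is prepared in G1, when the origin recognition complex, Cdc6 and the Cdt1 protein (double parked, dup, in the fly) load the Mcm helicase on origins. Cyclin E with Cdk2 then starts S phase, in which PCNA clamps polymerases to DNA, and E2F factors switch on many of the genes involved. Most larval tissues of the fly grow by endocycles, rounds of S phase without mitosis, while imaginal cells, neuroblasts and the germline divide by mitosis.

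The values are intensities in arbitrary units, a model-based index that the authors derived from the probes of each probe set. They were compared on the log2 scale in limma, in 1 fit over the 3 genotypes, with Benjamini-Hochberg adjustment over 18769 probe sets, and a gene was called at an adjusted p below 0.05 with no fold threshold. All p-values rest on the spread between 2 pools per genotype. Array medians were 51.5 and 51.9 with dTip60E431Q, 43.8 and 45.2 with dTip60WT, and 44.4 and 43.6 in the control. Tip60 itself, read as a check of the labels, was at 5172 and 5464 with dTip60E431Q, 3045 and 2755 with dTip60WT, and 30.8 and 29.2 in the control. Transcripts of the mutant transgene thus exceeded those of the wild-type transgene by 0.88 on the log2 scale (adjusted p = 0.0142), so that the substitution and the transcript level cannot be told apart between these genotypes. All values of the 25 genes lay above 25.9, and 1.37% of the values of all probe sets were at exactly 1, near the low end of the table at 0.69. The 25 genes varied little between pools of a genotype. The median difference between the 2 pools was 0.12 on the log2 scale with dTip60E431Q, 0.11 with dTip60WT and 0.11 in the control, against 0.22, 0.19 and 0.17 over all genes. That comparison was not matched for level, and all genes include values near the low end of the table.

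Larvae with dTip60E431Q had lower transcript levels of 6 of the 11 measured licensing genes, of PCNA, of both genes of nucleotide supply and of the cyclins CycE and CycD. Against the control, 11 of the 25 genes fell and 1, Cdk4, rose, where 14.2% of all genes fell and 14.2% rose. The genes that fell were PCNA, Cdc6, Mcm3, CycE, Mcm5, Ts, dup, RnrL, Orc1, CycD and Mcm6. In 6 of them the fall was at least 2-fold, and Cdc6 fell most. The median difference of the 25 genes was -0.61 on the log2 scale, against 0.03 for all genes. Both dTip60E431Q arrays lay below both control arrays for 20 of the 25 genes, where this held for 33.4% of all genes, and above them for Orc5, Cdk4 and CycB3.

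Set against dTip60WT in place of the control, the same larvae gave 10 genes that fell and 1 that rose, where 14.2% of all genes fell and 14.7% rose. These were the genes called against the control except CycD. The median difference was -0.59, against 0.02 for all genes, and 20 genes lay below without overlap, as did 33.6% of all genes. The comparisons share the dTip60E431Q arrays and are not independent. Without dTip60WT replicate 1 the calls numbered 2 and without dTip60WT replicate 2 they numbered 3, against 6 without dTip60E431Q replicate 1 and 7 without dTip60E431Q replicate 2. Between dTip60WT and control none of the 25 genes was called, where 0% of all genes fell and 0.00835% rose.

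Fewer calls were made against the control with any 1 array left out. This leaves a genotype with 1 pool and less information on the spread, so a lower count does not single out an array. All 11 genes stayed below the control in every alternative tried. Without control replicate 1 the calls numbered 2 and without control replicate 2 they numbered 3, against 5 without dTip60E431Q replicate 1 and 6 without dTip60E431Q replicate 2. PCNA and Cdc6 kept their call in all 15 alternative fits in limma, though the methods' t-test called 0 genes after adjustment. Scaling the arrays to one median moved the median difference of all genes to -0.20 and that of the 25 genes to -0.85, and the lower share of all called genes was then 67.4%, against 50% as deposited.

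**Figure D1:**
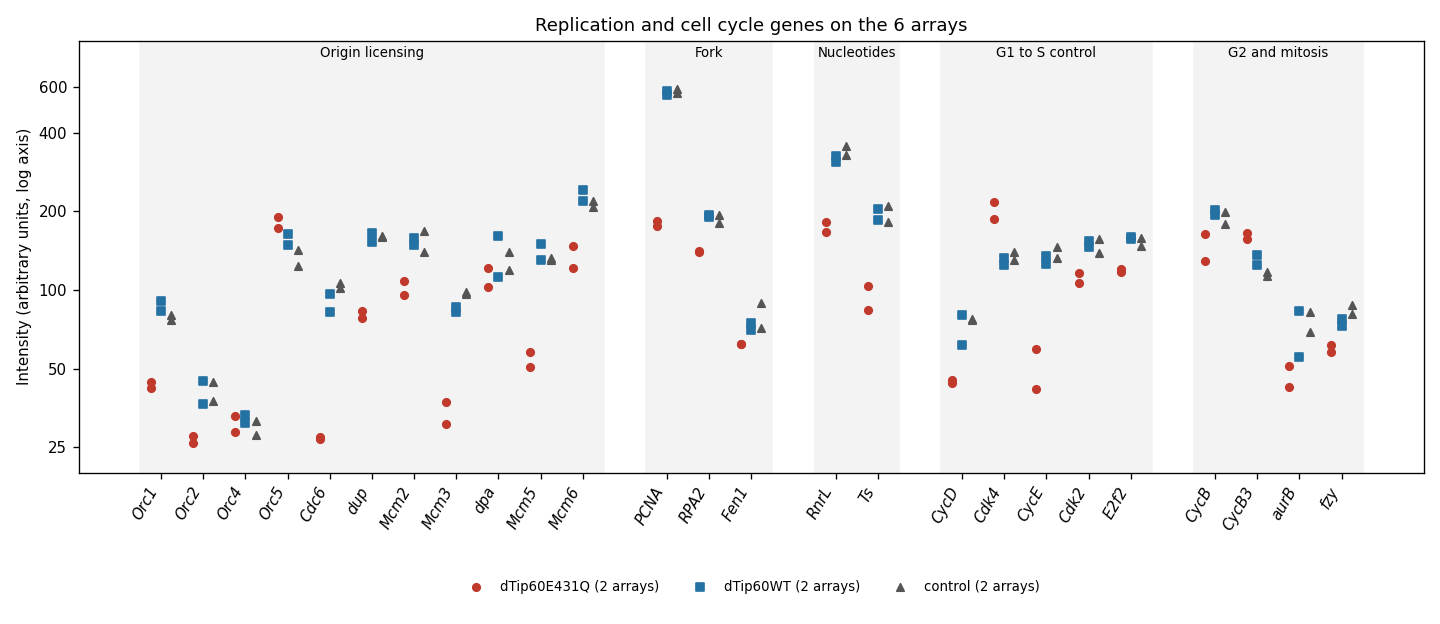
Intensity (arbitrary units, log axis) of the 25 measured genes on each of the 6 arrays, grouped by role, with 1 point per array. The dTip60E431Q points of PCNA, Cdc6, Mcm3, Mcm5 and CycE sit well below the other 4, and those of Cdk4 above them. Levels of different genes come from different probes and are not comparable.

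Among the licensing genes, 6 of 11 fell against the control, and the median difference was -0.67. The steepest fall was that of Cdc6, the loader of the helicase (chromosome arm 3L). It had 27.5 and 26.8 with dTip60E431Q, 96.5 and 82.3 with dTip60WT, and 107 and 102 in the control. The dTip60E431Q level was 3.84-fold below the control (log2 difference -1.94, SE 0.14, adjusted p = 0.00576) and -1.71 against dTip60WT (adjusted p = 0.00581). Its partner dup, the fly Cdt1 (arm 2R), had 78.2 and 83.0 with dTip60E431Q, 166 and 153 with dTip60WT, and 161 and 160.25 in the control. That is a log2 difference of -0.995 from the control (SE 0.12, adjusted p = 0.0109), and of -0.98 from dTip60WT. For both genes the dTip60E431Q arrays lay far below the other 4, by much more than the pools of any genotype differed.

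Of the 5 measured subunits of the Mcm helicase, 3 fell. Mcm3 (chromosome X) had 30.6 and 37.3 with dTip60E431Q, 82.1 and 85.8 with dTip60WT, and 96.5 and 98.1 in the control, a fall of 2.88-fold (log2 difference -1.53, SE 0.15, adjusted p = 0.00798). Mcm5 (arm 3R) had 57.9 and 50.8 with dTip60E431Q, 149.6 and 129.9 with dTip60WT, and 133 and 131 in the control, 2.43-fold lower with dTip60E431Q than in the control (-1.28, SE 0.14, adjusted p = 0.00986). Mcm6 (chromosome X) had 122 and 147 with dTip60E431Q, 241 and 219 with dTip60WT, and 219 and 208 in the control, a smaller fall (-0.67, SE 0.15, adjusted p = 0.043). Both Mcm6 calls, against the control and dTip60WT, were lost with the replicate number as a block. They were also lost in a fit of only the 4 arrays compared. The subunits Mcm2 and Mcm4, the second of which is dpa in the fly, were not called. Mcm2 had 96.0 and 108 with dTip60E431Q, 159 and 149 with dTip60WT, and 168 and 140.2 in the control, without overlap (-0.59, SE 0.15, adjusted p = 0.0603). The dpa values overlapped, with 102 and 121 under dTip60E431Q, 160.5 and 112 under dTip60WT, and 139.5 and 119.8 in the control (-0.22, adjusted p = 0.56, 95% interval -0.84 to 0.41). Against dTip60WT the differences were -1.31 for Mcm3, -1.36 for Mcm5 and -0.78 for Mcm6, all called, and -0.59 for Mcm2 and -0.27 for dpa.

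The origin recognition complex, which marks the sites where the helicase is loaded, gave 4 measured subunits. Orc1, its largest subunit (arm 2R), had 42.2 and 44.5 with dTip60E431Q, 83.4 and 90.7 with dTip60WT, and 76.7 and 80.1 in the control. It fell by 0.85 on the log2 scale against the control (SE 0.12, adjusted p = 0.0151) and by 1.00 against dTip60WT (adjusted p = 0.0103). Orc2 had 27.6 and 25.9 with dTip60E431Q, 36.6 and 44.9 with dTip60WT, and 44.5 and 37.6 in the control, below both without overlap but not called (-0.61, SE 0.17, adjusted p = 0.0695). Orc4 overlapped in all 3 genotypes, with 32.98 and 28.6 under dTip60E431Q, 33.2 and 31.0 under dTip60WT, and 27.9 and 31.5 in the control. Its difference from the control was 0.05 (95% interval -0.34 to 0.44) as deposited and -0.18 after scaling to one median. Orc5 stood on the other side of the control, with 173 and 189.6 under dTip60E431Q, 164 and 148.3 under dTip60WT, and 123 and 142 in the control (0.45, SE 0.15, adjusted p = 0.0989). These subunits thus ran from -0.85 to 0.45 against the control, and Orc1 alone was called.

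Of the genes that work at the fork, PCNA alone was called. PCNA, the sliding clamp (arm 2R), had 176 and 183 with dTip60E431Q, 559.6 and 575 with dTip60WT, and 588 and 566 in the control. The means were 179.8 ± 4.94 with dTip60E431Q, 568 ± 11.2 with dTip60WT and 577 ± 15.5 in the control (SD, n = 2 each). The fall was 3.21-fold against the control (log2 difference -1.68, SE 0.11, adjusted p = 0.00566) and came to -1.66 on the log2 scale against dTip60WT (adjusted p = 0.00536). This was the smallest p of the 25 genes in both comparisons, with pools that differed by far less than the genotypes. RPA2, a subunit of the protein that coats single-stranded DNA, had 140.3 and 141 with dTip60E431Q, 194 and 191 with dTip60WT, and 193 and 181 in the control (-0.41, SE 0.11, adjusted p = 0.0685). Fen1, the nuclease that trims Okazaki fragments, had 62.0 and 61.9 with dTip60E431Q, 75.1 and 70.3 with dTip60WT, and 89.3 and 71.5 in the control (-0.37, SE 0.16, adjusted p = 0.173). Neither was called, although their dTip60E431Q arrays lay below the other 4.

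Both measured genes of nucleotide supply fell. RnrL, the large subunit of ribonucleotide reductase (arm 2L), had 181 and 167 with dTip60E431Q, 325 and 310.01 with dTip60WT, and 329 and 355 in the control. This was 1.96-fold below the control (-0.97, SE 0.12, adjusted p = 0.012) and a log2 difference of -0.87 from dTip60WT (adjusted p = 0.0141). Ts, thymidylate synthase (arm 2L), had 104 and 83.8 with dTip60E431Q, 204 and 185 with dTip60WT, and 182 and 209 in the control. It was 2.09-fold lower than in the control (-1.06, SE 0.17, adjusted p = 0.0199), and the difference from dTip60WT was also -1.06 (adjusted p = 0.019). The groups did not overlap for either enzyme. Ts was not called against the control with the replicate number as a block or in a fit of only the 4 arrays compared.

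**Figure D2:**
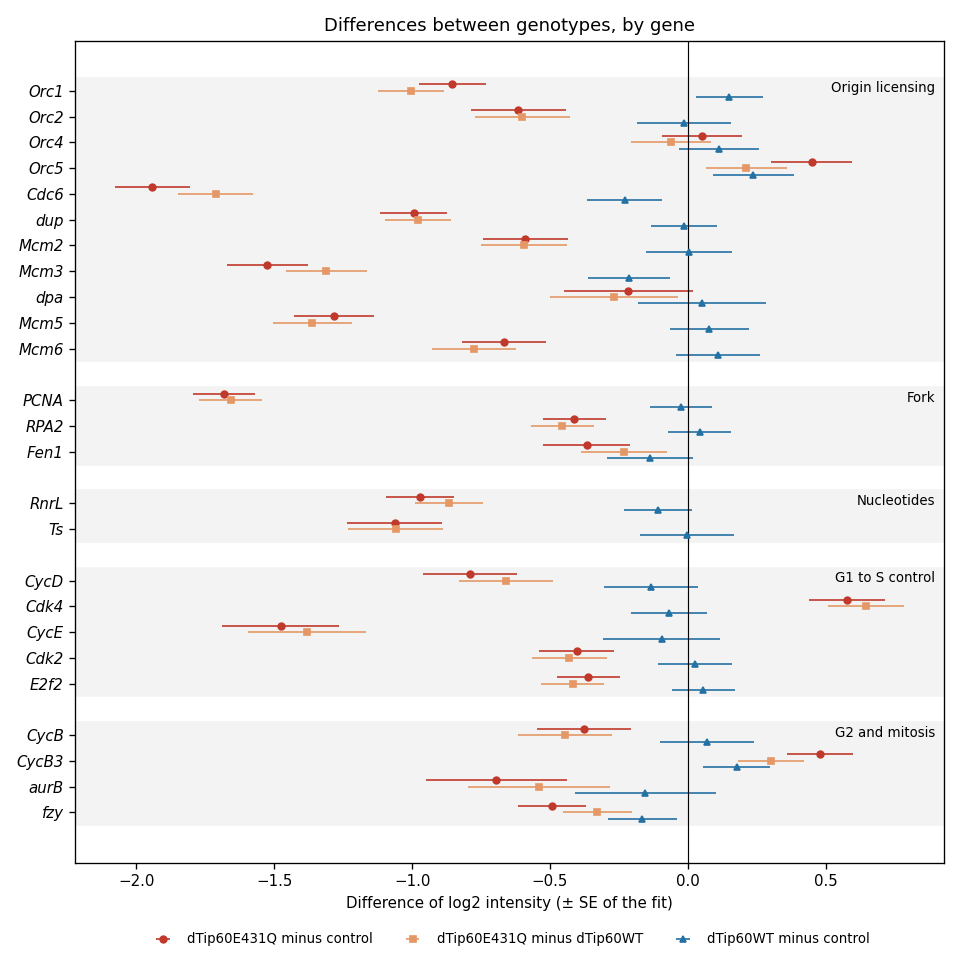
Difference of log2 intensity (± SE of the fit) for each of the 25 genes, by role, for dTip60E431Q minus control, dTip60E431Q minus dTip60WT and dTip60WT minus control. The dTip60E431Q differences run from -1.94 for Cdc6 to 0.58 for Cdk4 against the control, while dTip60WT minus control stays between -0.23 and 0.24.

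The regulators of S phase entry moved in both directions. CycE, the cyclin that starts S phase in mitotic and endocycling cells (arm 2L), had 59.7 and 41.8 with dTip60E431Q, 135 and 125 with dTip60WT, and 146 and 133 in the control. It fell 2.78-fold against the control (-1.48, SE 0.21, adjusted p = 0.0155), and its dTip60E431Q pools were the farthest apart of all 25 genes in that genotype, by 0.51 on the log2 scale. Its kinase Cdk2 had 107 and 117 with dTip60E431Q, 146 and 154 with dTip60WT, and 157 and 138 in the control, lower but not called (-0.40, SE 0.14, adjusted p = 0.106). E2f2, the repressing E2F factor, had 120.3 and 117 with dTip60E431Q, 157 and 159.95 with dTip60WT, and 147.7 and 157 in the control (-0.36, SE 0.11, adjusted p = 0.093). Both sets of dTip60E431Q values lay below all others.

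Cyclin D and its kinase Cdk4, which together promote growth and passage through G1, went opposite ways. CycD (chromosome X) had 45.1 and 44.2 with dTip60E431Q, 80.6 and 61.6 with dTip60WT, and 77.1 and 77.3 in the control, a fall of 0.79 on the log2 scale against the control (SE 0.17, adjusted p = 0.0378). Its difference from dTip60WT was -0.66 and was not called (adjusted p = 0.0578). Cdk4 (arm 2R) had 187 and 216 with dTip60E431Q, 133 and 124 with dTip60WT, and 130.3 and 139.6 in the control, 1.49-fold higher with dTip60E431Q than in the control (0.58, SE 0.14, adjusted p = 0.0477). Against dTip60WT the difference was 0.65 (adjusted p = 0.0359). After scaling to one median the Cdk4 difference from the control was 0.35 and was not called (adjusted p = 0.165). The probe sets of CycD, Cdk4, CycE and Cdk2 are of a class whose probes occur in more than 1 transcript, which may be forms of the same gene or of others.

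None of the 4 measured genes of G2 and mitosis was called, and their median difference from the control was -0.44. That median depends on the brightest probe set of fzy, which the other probe sets of the gene did not follow. CycB, a mitotic cyclin, had 164 and 129 with dTip60E431Q, 203 and 193 with dTip60WT, and 199.6 and 179 in the control (-0.38, SE 0.17, adjusted p = 0.191). CycB3, another mitotic cyclin, stood on the other side, with 165 and 157 under dTip60E431Q, 125 and 136 under dTip60WT, and 117 and 114 in the control (0.48, SE 0.12, adjusted p = 0.0542). Neither cyclin overlapped between dTip60E431Q and the control. The kinase aurB, part of the complex that corrects chromosome attachment, had 42.5 and 51.2 with dTip60E431Q, 55.5 and 82.9 with dTip60WT, and 69.0 and 82.6 in the control. Its difference of -0.69 had a wide error (SE 0.26, adjusted p = 0.13, 95% interval -1.38 to -0.01), and its dTip60WT pools were the farthest apart of the 25 genes in that genotype, by 0.58.

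The mitotic gene fzy, the Cdc20 activator of the anaphase-promoting complex, was the only one of the 25 with more than 1 probe set, and its 3 probe sets did not go together. The brightest had 61.7 and 57.8 with dTip60E431Q, 72.5 and 77.5 with dTip60WT, and 87.3 and 80.9 in the control (-0.49, SE 0.12, adjusted p = 0.0545). The next had 37.7 and 36.3 with dTip60E431Q, 49.6 and 52.3 with dTip60WT, and 26.9 and 43.3 in the control (0.12, adjusted p = 0.781). The dimmest, with 11.7 and 5.45 under dTip60E431Q, 2.04 and 1.47 under dTip60WT, and 2.35 and 7.09 in the control, lay near the low end of the table (0.97, adjusted p = 0.371). Their mean differed from the control by 0.20, so that no direction can be given for fzy.

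The wild-type transgene left the same 25 genes close to the control. The differences between dTip60WT and control ran from -0.23 for Cdc6 to 0.24 for Orc5, with a median of -0.00, and every adjusted p was 1. None had an unadjusted p below 0.05. Among the 11982 genes 521 did, a share at which 25 genes would hold few or none. The 95% intervals were -0.59 to 0.13 for Cdc6, -0.33 to 0.28 for PCNA, -0.31 to 0.46 for Mcm5 and -0.66 to 0.47 for CycE. The widest was that of aurB, from -0.84 to 0.53. These intervals hold for single genes and are not adjusted for the number tested. With 2 pools per genotype, differences within them could not be seen, and larger ones could also go uncalled. The imaginal disc marker vg differed by -0.76 between dTip60WT and control and was not called (adjusted p = 0.638). For PCNA the interval of dTip60WT against control did not reach that of dTip60E431Q against control, which ran from -1.99 to -1.38.

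Other genes of the same pathways were read from 6 further lists, all against the control, and their counts stand beside 14.2% of all genes lower and 14.2% higher. Of 28 measured genes of the replication machinery outside the 25, 8 fell and none rose, with a median of -0.27. Mcm10, which helps start the helicase, had 27.4 and 25.4 with dTip60E431Q, 74.9 and 72.2 with dTip60WT, and 61.2 and 71.8 in the control (-1.33, adjusted p = 0.00882). The deoxyribonucleoside kinase dnk, which salvages DNA precursors, had 140.3 and 103 with dTip60E431Q, 386 and 393 with dTip60WT, and 425 and 374 in the control (-1.73, adjusted p = 0.0101). Claspin, an adaptor of the replication checkpoint, had 41.9 and 38.5 with dTip60E431Q, 80.2 and 69.7 with dTip60WT, and 89.3 and 83.1 in the control (-1.10, adjusted p = 0.012). In each of these 3 genes both dTip60E431Q arrays lay below all the others. The other 5 that fell were the polymerase subunits PolE2 (-1.10), PolA1 (-0.76) and PolE1 (-0.66), dUTPase (-0.89), which keeps uracil out of DNA, and the histone chaperone asf1 (-0.68).

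Genes of CDK, E2F and SCF control gave 3 falls and 1 rise among 25 measured, with a median of -0.08, no larger a share in either direction than the 14.2% of all genes. The falls were those of SkpA (-0.64, adjusted p = 0.0249), a subunit of the SCF ubiquitin ligase, Caf1-55 (-0.63, adjusted p = 0.0305), a histone-binding protein, and Cks30A (-0.58, adjusted p = 0.0452), a CDK-binding protein. The rise was that of trbl, which promotes the breakdown of the Cdc25 phosphatase String and so slows entry into mitosis. It had 225 and 199 with dTip60E431Q, 79.0 and 63.5 with dTip60WT, and 89.2 and 70.9 in the control (1.41, adjusted p = 0.0148).

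The further mitotic lists had medians closer to 0 than the -0.44 of the 4 measured G2 and mitosis genes. With 4 genes, that -0.44 depends on the brightest fzy probe set, and no direction can be given for fzy. The lists therefore cannot be said to differ in their medians. Among 25 spindle and kinetochore genes, with a median of -0.04, the centromeric histone cid (-0.998, adjusted p = 0.0358), its loading factor cal1 (-0.84, adjusted p = 0.0236) and the kinetochore scaffold Spc105R (-0.77, adjusted p = 0.0361) fell and the kinetochore gene Ndc80 rose (0.83, adjusted p = 0.0475). These counts too were no larger a share than the 14.2% of all genes in either direction. Among 13 genes of cytokinesis and the centrosome, with a median of -0.09, only tum was called, a component of the central spindle. It had 155 and 136 with dTip60E431Q, 49.7 and 55.2 with dTip60WT, and 71.1 and 62.9 in the control (1.12, adjusted p = 0.0131). Incenp (-0.52, adjusted p = 0.0595) and feo (-0.42, adjusted p = 0.0699), which also act at the central spindle, were not called.

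Within the condensin complex, which compacts mitotic chromosomes, only Cap-G and glu were called, in opposite directions. The other measured subunits, SMC2 (0.26), barr (0.31), Cap-D2 (0.34), Cap-D3 (0.59) and Cap-H2 (0.28), were not called. Of these, Cap-D3 lay near the low end of the table. Cap-G had 543 and 540.02 with dTip60E431Q, 1485 and 1363 with dTip60WT, and 1356 and 1442 in the control (-1.37, adjusted p = 0.00735). The SMC subunit glu had 344 and 393 with dTip60E431Q, 164 and 174 with dTip60WT, and 144 and 132 in the control (1.41, adjusted p = 0.00801). The acetyltransferase san, needed for sister chromatid cohesion, also fell (-1.21, adjusted p = 0.00798), as did the APC/C subunit Cdc16 (-0.53, adjusted p = 0.0418). Over the 25 measured genes of the APC/C, cohesin and condensin the median was -0.01. Of these, 3 fell and 1 rose, no larger a share in either direction than the 14.2% of all genes. In the 15 checkpoint and repair genes, with a median of -0.10, the Chk1 kinase grp fell (-0.96, adjusted p = 0.014), the nuclease mre11 rose (0.81, adjusted p = 0.0222), and its partner nbs was not called (0.82, adjusted p = 0.0505). For grp only the brightest of 3 probe sets was read. None of these 6 lists held a gene called between dTip60WT and control.

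**Figure D3:**
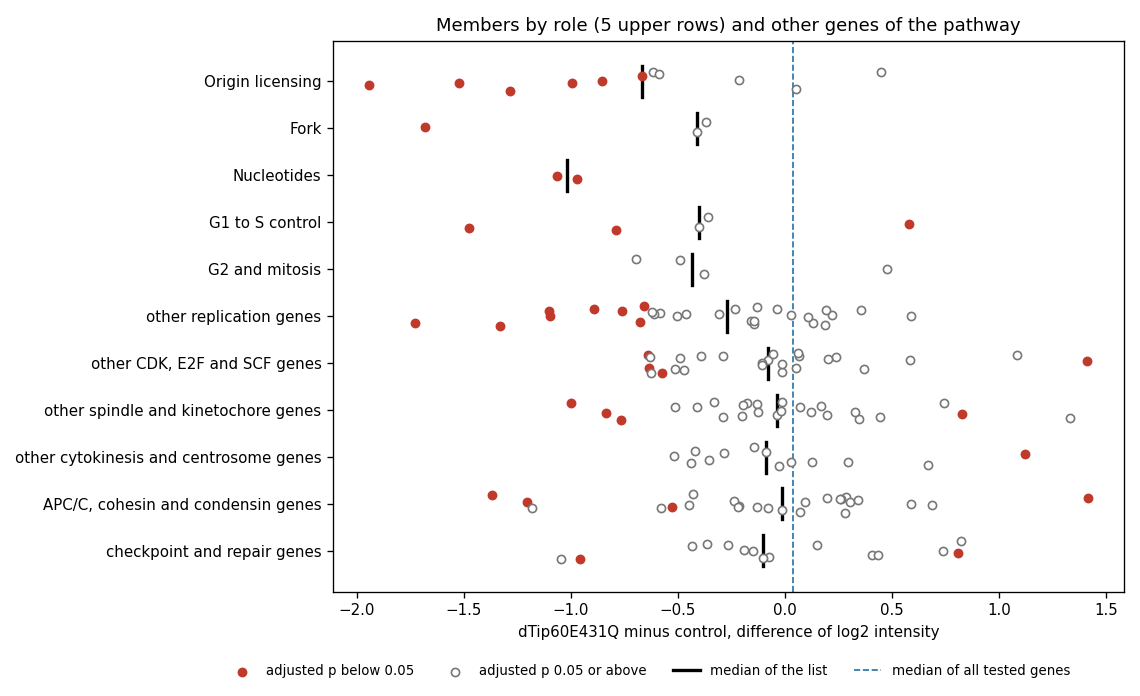
Difference of log2 intensity, dTip60E431Q minus control, for the 25 genes by role (5 upper rows) and for the other genes of the pathway (6 lower rows), with 1 point per gene. Filled points have an adjusted p below 0.05, black bars are list medians, and the dashed line is the median of all 11982 genes at 0.03. Medians of the upper rows run from -1.02 for nucleotide supply to -0.40 for G1 to S control, with G2 and mitosis at -0.44. Those of the lower rows run from -0.27 to -0.01. The G2 and mitosis median depends on the brightest of the fzy probe sets, which differ in direction.

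Markers of developmental stage moved with the same comparison. Lsp2, a larval serum protein that the fat body makes in the last larval instar, had 139.6 and 130 with dTip60E431Q, 13420.1 and 13157 with dTip60WT, and 15145.5 and 13517 in the control (-6.73, adjusted p = 0.0014). Summed over the 3 measured late fat body markers, the levels were 169 and 161 with dTip60E431Q, 20209 and 20166 with dTip60WT, and 26054 and 18982 in the control. Of the 3, Lsp2 and Fbp2 fell, where 14.2% of all genes fell. Genotype and developmental stage cannot be told apart here, and the part of stage in the replication genes was not tested across genotypes.

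Pools of a genotype also differed in late larval markers. Fbp1, a further fat body marker, had 3.32 and 6.42 with dTip60E431Q, 5.01 and 1015 with dTip60WT, and 1329 and 7.09 in the control. The glue gene Sgs3 of the salivary gland followed it, with 8.27 and 2.50 under dTip60E431Q, 1.93 and 343 under dTip60WT, and 201 and 8.31 in the control. These markers singled out dTip60WT replicate 2 and control replicate 1, by 7.66 and 7.55 on the log2 scale for Fbp1. Lsp2 did not split these pools. Between the same pools the 25 replication and cell cycle genes differed by -0.52 to 0.58 in dTip60WT (median -0.09) and by -0.26 to 0.32 in the control (median 0.05). Over the 6 glue genes, none of which was called against the control, the sums were 271 and 222 with dTip60E431Q, 230.3 and 1449 with dTip60WT, and 1165 and 202 in the control, and Sgs4, the brightest, gave 0.11 (adjusted p = 0.83). Fbp1 and Sgs3 were chosen for naming after their values were seen.

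**Figure D4:**
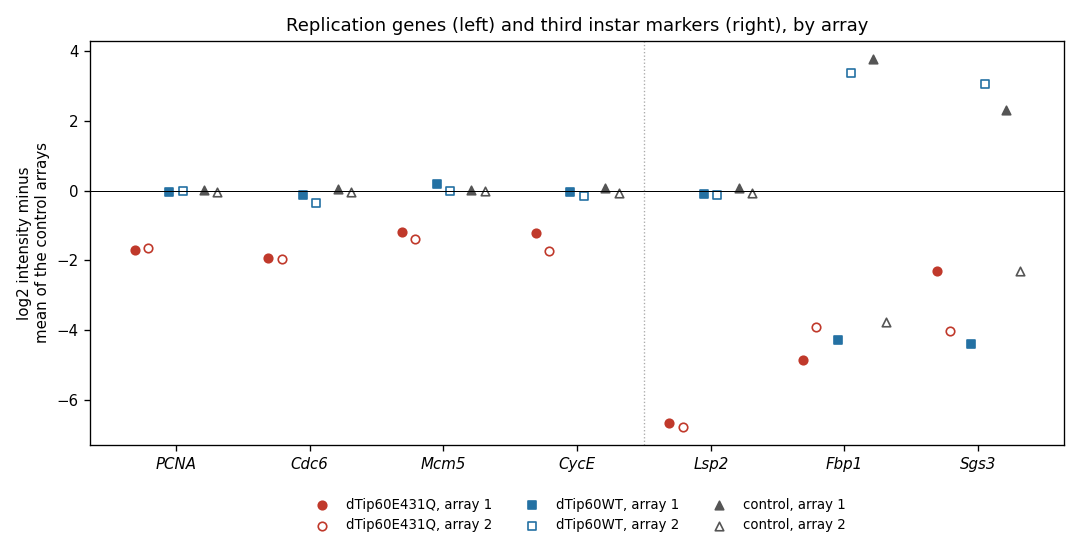
Log2 intensity of 4 replication genes and 3 late larval markers on each array, minus the mean of the control arrays, with filled and open symbols for the first and second array of a genotype. The dTip60E431Q arrays lie below the other 4 for PCNA, Cdc6, Mcm5, CycE and Lsp2, and Fbp1 and Sgs3 split the dTip60WT and control pools.

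None of the markers of mitotically dividing tissues was called lower than the control, where 14.2% of all genes fell and 14.2% rose. The neuroblast, disc, germline and hemocyte lists held 5 or 6 measured genes each, too few to read their calls against these shares. Neuroblast markers summed to 408 and 435 with dTip60E431Q, 297 and 254 with dTip60WT, and 256 and 296 in the control, and 2 of 6, wor and insc, rose, while pros, the brightest, was not called (0.52, adjusted p = 0.117). Imaginal disc markers summed to 494 and 490.3 with dTip60E431Q, 389 and 316 with dTip60WT, and 389.5 and 367 in the control, and 1 of 6, nub, rose, with Dll, the brightest, at 0.53 (adjusted p = 0.0614) and ey near the low end of the table at 1.00 to 18.7. The disc gene ap lay the other way without overlap, at 53.1 and 52.5 with dTip60E431Q, 120.4 and 80.4 with dTip60WT, and 106 and 86.4 in the control, and was not called (-0.86, adjusted p = 0.0728). Germline markers, here of the gonads, summed to 234 and 237 with dTip60E431Q, 173 and 157 with dTip60WT, and 137 and 149 in the control. Of these 5, AGO3 rose and aub, the brightest, was not called (0.92, adjusted p = 0.0541). Hemocyte markers overlapped, with sums of 1051 and 1255 with dTip60E431Q, 1148 and 996 with dTip60WT, and 1292 and 1171 in the control. None of the 5 was called, and Pxn, the brightest, gave -0.05 (adjusted p = 0.873). For markers with more than 1 probe set, among them nub and Dll with 3 each, only the brightest was read. The part of tissue composition in the differences was not tested. Of the markers for whole larvae, the gut protease betaTry was high in all genotypes, at 7840 and 7077 with dTip60E431Q, 4722 and 5010 with dTip60WT, and 6144 and 5878 in the control, elav of neurons lay between 232 and 289 on all arrays, and nSyb lay near the low end of the table at 1.00 to 8.82.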

How the data were processed

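Following the methods, the authors read the arrays with GCOS, then derived normalized model-based expression indexes in dChip (versions, baseline array and probe model not given in the sources used here). The deposited intensities, in arbitrary units from 0.69 to 18115, were taken to be these indexes and used as log2 without a pseudocount. Of 18952 probe sets, 183 Affymetrix controls were left out. The platform annotation gave 1 symbol to 13647 of the rest, several to 402 and none to 4720, and the brightest such probe set stood for a gene. Chromosome arms came from a RefSeq gene table. In limma 3.58.1 (R 4.3.3, statmod 1.5.0), each genotype had its own mean in 1 fit over the 6 arrays (3 residual and 1.43 prior degrees of freedom, median residual SD 0.241), after a test on simulated data.

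The 25 genes and all lists were chosen with earlier results of these data known, so no list was tested. Named were all listed genes, the 3 smallest p of each further pathway list, the brightest marker of each marker list, and Tip60. Other genes were named after their values were seen. Promoter motifs and sequences were not analysed here. Alternatives were a replicate block, fits of 4 arrays, trend and robust moderation, quantile normalization, median scaling, a pseudocount of 16, a filter at the 40th and a floor at the 20th percentile, each array left out, other call rules, and averaged probe sets. Plots were made in matplotlib 3.10.9.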

Additional observations from a re-analysis of the deposited data

How the results depend on the processing

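The 11 genes that fell against the control, and the 10 that fell against dTip60WT, stayed lower in every alternative. Their number moved more. Against the control the 12 calls became 20 without dim probe sets, 18 with a floor, and 6 with a 2-fold threshold, with an unadjusted p and a fold above 2, or with the methods' t-test, which gave 0 after Benjamini-Hochberg adjustment. Against dTip60WT the 11 calls became 17 with trend and robust options or with median scaling, 18 with quantile normalization, without dim probe sets or with a floor, 7 with the 2-fold threshold or the unadjusted p, and 6 with the methods' t-test, which gave 0 after adjustment. With an array left out the calls ranged from 2 to 9 in both comparisons, and the fewest came without control replicate 1 against the control and without dTip60WT replicate 1 against dTip60WT. The arrays left out leave a genotype with 1 pool, assumed to vary like the others. Between dTip60WT and control the calls were 0 in every alternative.

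Against the control the median difference of the 25 genes was -0.85 with median scaling, -0.79 with quantile normalization and -0.71 to -0.49 with an array left out. Against dTip60WT it was -0.81 with median scaling, -0.77 with quantile normalization, -0.42 with the pseudocount and -0.64 to -0.53 with an array left out. Among all genes the lower share of calls against dTip60WT was 65.2% with median scaling and 49.1% without, and quantile normalization gave 58.7% against the control and 58.8% against dTip60WT. Cdk4 lost its call against the control in 10 of 15 alternatives. Orc4 changed sign against the control with median scaling (-0.18), with quantile normalization (-0.12), without control replicate 1 (-0.04) and without dTip60E431Q replicate 1 (-0.0517), over a range of -0.05 to 0.15 with an array left out. Against dTip60WT it changed sign without dTip60E431Q replicate 2 (0.0412), over a range of -0.16 to 0.04. Orc5 changed sign against dTip60WT with median scaling (-0.0031), and fzy with averaged probe sets against the control (0.20) and dTip60WT (0.47). The cause of these shifts was not tested. The number of arrays limits the precision of all values.

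Deviations of same-numbered pools showed no shared pattern over the tested probe sets. They correlated at -0.0125 between dTip60E431Q and control, -0.00735 between dTip60E431Q and dTip60WT, and -0.0116 between dTip60WT and control. These values cannot show whether same-numbered pools were collected or processed together. With the replicate number as a block, the calls were 8 against the control, 9 against dTip60WT and 0 between dTip60WT and control. Mcm6, Ts, CycD and Cdk4 then lost their calls against the control, and Mcm6 and Cdk4 theirs against dTip60WT. A fit of only the 4 arrays compared also lost Mcm6, Ts and Cdk4 against the control.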
